A study of Homo sapiens with 6 samples.

Results

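The proteasome genes described here were chosen by symbol, as all genes named PSMA to PSMG followed by a number, and 48 of the 62700 genes in the count table matched. They encode the subunits, activators, inhibitor and assembly factors of the proteasome, and 5 of them, PSMB8, PSMB9, PSMB10, PSME1 and PSME2, were set apart as the immunoproteasome genes. Expression was measured by poly(A) RNA sequencing in KYSE510, an established line of oesophageal squamous cell carcinoma. The 6 libraries were 3 shControl libraries (control shRNA, genotype label WT) and 3 shRNH1 libraries (shRNA, genotype label RNH1 knockdown), a design made to induce R-loops, in which RNA pairs with a DNA strand. The labels give no time after knockdown, do not say whether either line is a pool or a clone, and name biological replicates but not whether each came from its own culture, so p-values measure only the spread between these samples.

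The proteasome is the protease that degrades most ubiquitin-tagged proteins in the cytosol and nucleus. Its 20S core is a barrel of outer alpha rings and inner beta rings, and the active sites lie on PSMB5, PSMB6 and PSMB7. The 19S regulatory particle caps the core, with a base of ATPases that unfold substrates and a lid that removes ubiquitin. Interferons raise PSMB8, PSMB9 and PSMB10, which replace PSMB5, PSMB6 and PSMB7 in newly made cores, and the PSME1 and PSME2 activator, and peptides cut by these forms are presented on MHC class I.

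Total counts ran from 40225486 to 41103220 in shControl and from 31394687 to 33421217 in shRNH1. RNASEH1, which encodes the nuclease that cleaves RNA in RNA:DNA hybrids, was the lowered gene, with 1357, 1344 and 1015 counts in shControl and 251, 247 and 232 in shRNH1. RNH1, the ribonuclease inhibitor gene that carries the labelled symbol, had a log2 fold change of -0.19 (SE 0.112, edgeR adjusted p = 0.221), so shRNH1 here names libraries low in RNASEH1. Of 8 squamous markers, TP63 (1677 to 2234 counts), KRT17 and SFN were abundant in every library, KRT5, KRT14 and SFN fell, and SOX2 and PKP1 rose, PKP1 from 0 to 2 counts to 10 to 21. Of 14 leukocyte markers, which matter because leukocytes are rich in immunoproteasome, 3 were at 0 in all libraries, CD3E had 0 to 4 counts and PTPRC 0 to 1 in shControl and 6 to 11 in shRNH1. Their summed level was 6.22 to 7.57 CPM (counts scaled to library size, with TMM factors) in shControl and 8.25 to 10.53 in shRNH1, mostly from CSF1R, which overlapped between groups (adjusted p = 0.249). Of the 3 tested leukocyte markers ITGAM alone rose (4 to 7 and 24 to 29 counts). Fibroblast markers summed to 292.9 to 331.1 and 504.0 to 564.1 CPM, mostly FBLN1 and COL1A1, which rose, while PDGFRB fell (131 to 140 and 55 to 71 counts; log2 -0.91, edgeR adjusted p = 0.00103) and COL1A2 and DCN were at 0 in every library. Endothelial markers summed to 21.8 to 24.3 and 21.3 to 22.6 CPM, with KDR at 0. Of the 4 tested, PECAM1 rose (0.51, edgeR adjusted p = 0.0234; 0.32 and adjusted p = 0.233 without shRNH1 replicate 1, and not called without shControl replicate 2 or 3), and CDH5, VWF and CLDN5 had estimates of -0.26, -0.42 and -0.37 that did not pass.

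Most proteasome genes did not change measurably, while PSMB8, PSMB9, PSMA2 and PSMG3 rose and PSME3, PSMF1 and PSMD9 fell in shRNH1. Of the 48 genes, 46 passed the filter on low counts and 7 of those (15.2%) passed edgeR's quasi-likelihood test at an adjusted p of 0.05, which 27.6% of all 19682 tested genes did. The 4 rises compare with 15.3% of all genes and the 3 falls with 12.3%. Groups did not overlap in CPM for 15 of the 46, and for 40.0% of all genes. The median log2 fold change was -0.02 over the 46 genes and 0.02 over all tested genes, and the median absolute log2 fold change was 0.13 and 0.27. For the 39 genes that did not pass, every 95% interval of the fold change lay between 0.709 (PSMG2) and 1.38 (PSMD10). The plot of fold changes by role shows how narrow this band was.

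**Figure D1:**
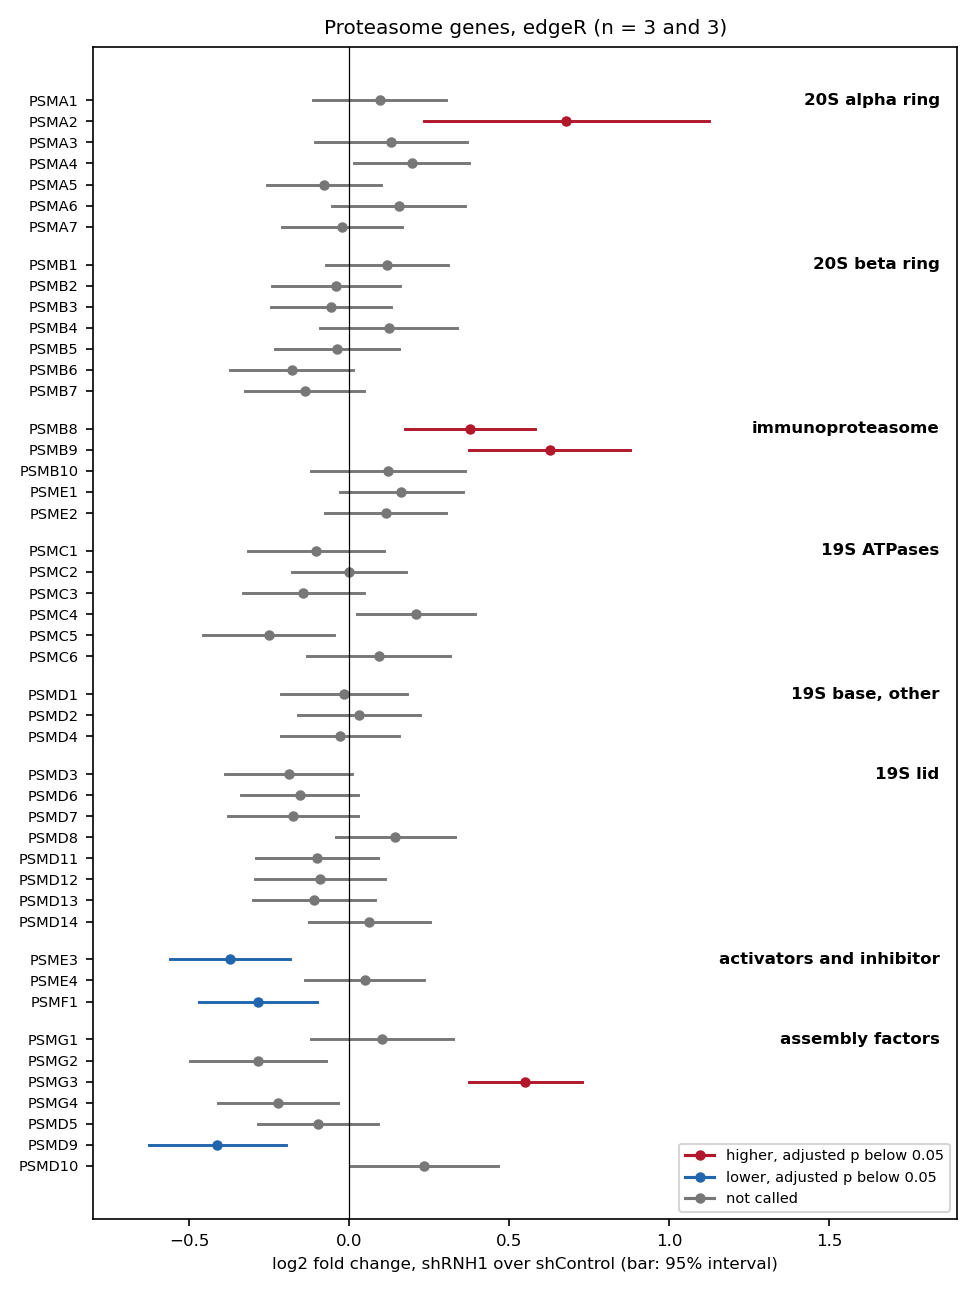
Log2 fold change of the 46 tested proteasome genes (x axis, shRNH1 over shControl, n = 3 and 3) by role (y axis), with points for the estimate and bars for the 95% interval. The 4 genes in red and the 3 in blue passed edgeR's test, and the 30 grey genes of the 20S and 19S particles lie between -0.25 and 0.21.

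Of the 5 immunoproteasome genes, PSMB8 and PSMB9, the inducible counterparts of the catalytic subunits PSMB5 and PSMB6, rose, and 0 fell (0 lower at an unadjusted p below 0.05, and 0 by DESeq2 or limma-voom). Among all tested genes 15.3% were called higher and 12.3% lower. All 5 estimates were above 0, with a median log2 fold change of 0.16, against 0.02 over all tested genes. PSMB8 (ENSG00000204264; GRCh38 chromosome 6, 32840717 to 32844703, minus strand) measured 34.0, 29.5 and 30.8 CPM in shControl and 45.4, 35.4 and 41.7 in shRNH1. The groups did not overlap, and shRNH1 replicate 2 lay nearest to the controls. The fold change was 1.30 (log2 0.38, SE 0.104, edgeR adjusted p = 0.00701). Leaving out shControl replicate 2 (0.32, adjusted p = 0.0520) or shRNH1 replicate 1 (0.30, adjusted p = 0.0799) ended the call.

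PSMB9 (ENSG00000240065; chromosome 6, 32844136 to 32859585, plus strand) measured 7.32, 7.02 and 6.24 CPM in shControl and 9.79, 11.0 and 11.0 in shRNH1. Every shRNH1 library was above every control, and the fold change of 1.54 (log2 0.63, SE 0.128, edgeR adjusted p = 5.08e-04) passed in all 16 alternative analyses. The annotated PSMB8 and PSMB9 genes overlap by 568 bases on opposite strands, and PSMB8-AS1 (13 to 35 counts) overlaps both. Whether counting used strand is not stated, so reads from these stretches could not be told apart. TAP1, the peptide transporter gene whose annotation also overlaps PSMB9 from the opposite strand, had a log2 fold change of 0.06 (adjusted p = 0.695). The summed leukocyte marker level, ITGAM and PTPRC counts were higher in shRNH1 by the values above, CD3E was not, and their part in the PSMB8 and PSMB9 difference was not tested.

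PSMB10, the counterpart of PSMB7, measured 9.99, 10.9 and 12.5 CPM in shControl and 13.5, 11.6 and 11.3 in shRNH1, with the groups interleaved. Its log2 fold change was 0.12 (95% interval -0.12 to 0.36). A gene without a symbol, ENSG00000261884, overlaps it by 1516 bases on the same strand, with 118 to 301 counts and a log2 fold change of -0.51 (adjusted p = 0.0258, edgeR). PSME1, a subunit of the ring-shaped activator that opens the core, measured 49.8, 55.0 and 52.95 CPM in shControl and 66.3, 52.9 and 57.5 in shRNH1. PSME2, its partner subunit, measured 64.9, 71.0 and 68.7 in shControl and 82.4, 66.2 and 72.8 in shRNH1. Both overlapped between groups, and shRNH1 replicate 1 was the highest library for each. Their log2 fold changes were 0.16 (95% interval -0.03 to 0.35) and 0.11 (-0.07 to 0.30), and neither passed. With library size alone PSME1 passed (0.27, edgeR adjusted p = 0.0439), a setting in which 4065 of all genes were higher in place of 3006. The immunoproteasome median was 0.07 without shRNH1 replicate 1.

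**Figure D2:**
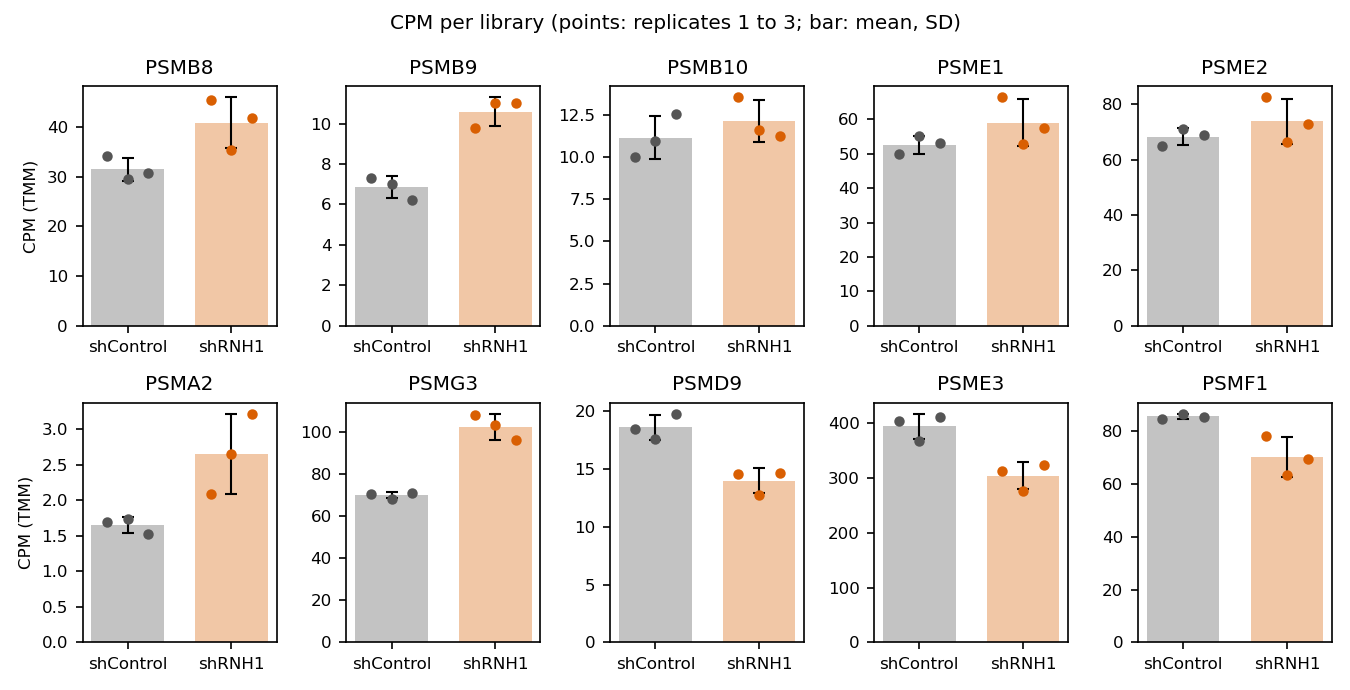
CPM (y axis, scaled by TMM) in each of 3 shControl and 3 shRNH1 libraries (points) for 10 proteasome genes, with bars for the mean and error bars for the SD. PSMB8, PSMB9, PSMA2 and PSMG3 are higher and PSMD9, PSME3 and PSMF1 lower in every shRNH1 library than in any control, whereas PSMB10, PSME1 and PSME2 overlap.

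Promoter sequences of the immunoproteasome genes are shown because 4 of the 5 carried the same 10 letters, in capitals, close to the start site. They are from RefSeq (GRCh38.p14) and run from 250 bases before to 50 bases after the start, 5′ to 3′ on the gene's strand. PSMB8 (chr6:32843998-32844297, minus strand, 1 of 2 listed start sites, the other without a match), PSMB10 (chr16:67936801-67937100, minus), PSME1 (chr14:24135944-24136243, plus), PSME2 (chr14:24146561-24146860, minus) and PSMB9 (chr6:32853942-32854241, plus, no match) follow.
PSMB8: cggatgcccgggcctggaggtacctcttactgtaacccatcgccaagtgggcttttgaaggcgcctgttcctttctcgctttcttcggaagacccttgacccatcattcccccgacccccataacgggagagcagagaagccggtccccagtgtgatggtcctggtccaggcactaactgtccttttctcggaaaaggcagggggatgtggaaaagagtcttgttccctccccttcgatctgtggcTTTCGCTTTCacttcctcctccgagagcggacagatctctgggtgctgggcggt
PSMB10: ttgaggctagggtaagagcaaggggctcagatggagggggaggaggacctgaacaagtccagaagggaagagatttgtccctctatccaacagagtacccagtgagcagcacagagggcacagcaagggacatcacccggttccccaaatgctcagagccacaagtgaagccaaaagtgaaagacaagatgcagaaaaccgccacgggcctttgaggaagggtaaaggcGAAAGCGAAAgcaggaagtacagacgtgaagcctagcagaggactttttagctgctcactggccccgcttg
PSME1: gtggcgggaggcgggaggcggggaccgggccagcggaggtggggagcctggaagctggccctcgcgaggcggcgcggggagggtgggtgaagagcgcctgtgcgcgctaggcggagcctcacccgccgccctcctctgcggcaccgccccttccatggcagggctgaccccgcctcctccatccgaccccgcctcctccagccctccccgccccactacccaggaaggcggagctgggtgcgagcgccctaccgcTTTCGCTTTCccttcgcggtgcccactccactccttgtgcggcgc
PSME2: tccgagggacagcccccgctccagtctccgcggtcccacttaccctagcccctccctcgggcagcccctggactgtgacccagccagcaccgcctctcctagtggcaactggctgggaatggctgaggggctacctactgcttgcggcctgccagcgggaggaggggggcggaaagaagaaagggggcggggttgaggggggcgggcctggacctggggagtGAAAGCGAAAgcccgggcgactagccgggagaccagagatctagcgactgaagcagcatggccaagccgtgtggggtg
PSMB9: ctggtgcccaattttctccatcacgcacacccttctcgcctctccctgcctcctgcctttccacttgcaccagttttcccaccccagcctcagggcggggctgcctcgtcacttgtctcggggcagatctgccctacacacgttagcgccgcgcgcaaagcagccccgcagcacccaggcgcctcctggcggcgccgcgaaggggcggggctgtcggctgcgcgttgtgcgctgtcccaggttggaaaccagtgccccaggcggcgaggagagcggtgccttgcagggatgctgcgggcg

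The pattern searched, on both strands, was the core of an interferon-stimulated response element, GAAA, any 2 bases and GAAA. Each of the 4 matches read GAAAGCGAAA, in that direction in PSMB10 and PSME2 and on the other strand (TTTCGCTTTC as printed) in PSMB8 and PSME1. The pattern was held by 3.57% of all 35116 RefSeq promoters, and by 7 of the 51 promoters of proteasome genes. The 10 letters GAAAGCGAAA, chosen after they were seen here, occurred in 35 of all 35116 promoters (0.0997%), 5 of them of proteasome genes (PSMG4 besides these 4). PSMB8 rose and carried the match, PSMB9 rose without a match in this window, and PSMB10, PSME1 and PSME2 carried it and did not pass the test. The STAT site core TTCNNNGAA was in the same PSMB8 promoter and in 7.66% of all promoters. The antioxidant response element core TGACNNNGC, the kind of site that the proteasome regulator NFE2L1 binds, was in 15 of the 51 promoters (29.4%), against 13.3% of all, and CCAAT in 20 of 51 (39.2%), against 34.6%. Promoters were found for 42 of the 48 genes. A match is only a string of letters, and binding was not measured.

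Because the inducible subunits replace constitutive ones, their counts were set against each other within each library, where scaling between libraries cancels. The PSMB8 to PSMB5 count ratio was 0.242, 0.234 and 0.244 in shControl and 0.324, 0.323 and 0.314 in shRNH1, a 1.34-fold difference. The spread within each group was small beside this difference. This held also in shRNH1 replicate 2, where PSMB5 was lower than in any other library and PSMB8 was the lowest of the shRNH1 libraries. The PSMB9 to PSMB6 ratio was 0.0538, 0.0555 and 0.0492 in shControl and 0.0744, 0.107 and 0.1003 in shRNH1, a 1.76-fold difference without overlap. The PSMB10 to PSMB7 ratio was 0.0524, 0.0576 and 0.0689 in shControl and 0.0747, 0.0770 and 0.0629 in shRNH1, and overlapped. Per kilobase of transcript in GENCODE 29, PSMB8 stood at 27.6% of PSMB5 in shControl and 36.9% in shRNH1, PSMB9 at 5.75% and 10.1% of PSMB6, and PSMB10 at 4.77% and 5.73% of PSMB7. On this per-length scale the constitutive catalytic subunit mRNAs exceeded their counterparts in both groups.

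PSME1 and PSME2 were likewise set against PSME3, which forms the nuclear activator. The PSME1 to PSME3 count ratio was 0.123, 0.149 and 0.129 in shControl and 0.212, 0.191 and 0.178 in shRNH1 (1.45-fold), and the PSME2 to PSME3 ratio was 1.399-fold higher, also without overlap. PSME3, the denominator, itself fell (log2 fold change -0.37), while PSME1 (0.16) and PSME2 (0.11) did not pass. An exact two-sided permutation test gave p = 0.1 for each of the 4 ratios without overlap, the smallest that 3 against 3 allows, and p = 0.2 for PSMB10 to PSMB7. Adjusted over the 5 ratios these exact p stayed at or above 0.1, so no ratio could pass at this sample number.

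**Figure D3:**
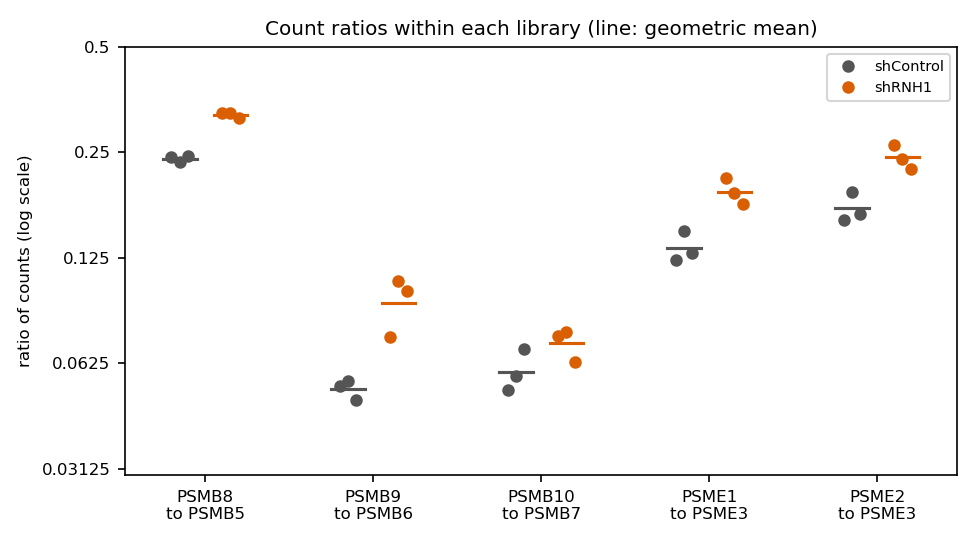
Count ratios of 5 pairs of proteasome genes (x axis) within each library (y axis, log scale), with 1 point per library and a line at the geometric mean of each group. The shRNH1 points lie above the shControl points for 4 pairs, and the PSMB10 to PSMB7 points overlap.

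The subunits of the 26S particle itself showed no common direction. Of 31 core ring, base and lid genes within the symbol rule, PSMA2 alone passed (3.23%, against 27.6% of all tested genes). Of their estimates 12 were above 0 and 19 below, against 10182 and 9500 of all tested genes. The median log2 fold change over the 31 genes was -0.03. Its sign depended on the analysis, at 0.08 when scaled by library size only, 0.06 when an offset for expression level was added to the fit, and 0.04 without shRNH1 replicate 2. The 7 beta ring genes lay between -0.18 (PSMB6) and 0.12 (PSMB4), with 0 called (0 at an unadjusted p below 0.05, and 0 by DESeq2 or limma-voom). Among them the catalytic subunit genes PSMB5, PSMB6 and PSMB7 had log2 fold changes of -0.04 (95% interval -0.23 to 0.16), -0.18 (-0.37 to 0.01) and -0.14 (-0.32 to 0.05). PSMB5 measured 141, 126 and 126 CPM in shControl and 140.2, 109.5 and 133 in shRNH1, with overlap. PSMB6 overlapped too, whereas every shRNH1 library was lower for PSMB7 (187.7 ± 4.74 and 170.4 ± 17.1 CPM, SD, n = 3 each).

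Of the 7 alpha ring genes, which form the gate of the core, PSMA2 rose and the others lay between -0.08 (PSMA5) and 0.19 (PSMA4). PSMA2 (ENSG00000106588; chromosome 7, 42916857 to 42932223, minus strand) had 66, 72 and 56 counts in the controls and 71, 93 and 106 after knockdown. In CPM these were 1.70, 1.74 and 1.52 against 2.09, 2.65 and 3.21. The groups did not overlap, and the fold change was 1.60 (log2 0.68, SE 0.228, edgeR adjusted p = 0.0262). At 1.11 CPM per kilobase in shControl it lay far under the other alpha ring genes, 14.1 (PSMA6) to 180.0 (PSMA7), although the ring holds its subunits in equal number. An unnamed gene on the same strand, ENSG00000256646 (0 to 5 counts), covers 15318 bases of PSMA2, and how reads shared by overlapping genes were counted is not stated. PSMA6 and PSMA1, at 14.1 and 18.6 CPM per kilobase in shControl, are likewise overlapped on the same strand, by 38842 and 15471 bases. The part of such overlap in the low PSMA2 level was not tested. The PSMA2 call was lost on leaving out shControl replicate 1 (0.70, adjusted p = 0.0536), shControl replicate 3 (0.63, adjusted p = 0.0631) or shRNH1 replicate 3 (0.52, adjusted p = 0.171), under the expression level offset (adjusted p = 0.0793) and in DESeq2 (0.66, adjusted p = 0.0618).

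In the 19S particle 0 of the 17 genes within the symbol rule passed, against 27.6% of all tested genes. At an unadjusted p below 0.05 there were 2, 1 in each direction, and DESeq2 and limma-voom called 0. The 19S receptor gene ADRM1, which lies outside the rule, fell (-0.42, edgeR adjusted p = 0.00382) and is described below. Of the 6 ATPase genes PSMC4 had the highest log2 fold change, 0.21 (95% interval 0.02 to 0.39), and PSMC5 the lowest, -0.25 (-0.46 to -0.05, edgeR adjusted p = 0.0765). PSMC5 passed without shControl replicate 3 (-0.32) or shRNH1 replicate 1 (-0.35), and it shares part of its locus with FTSJ3 on the other strand, which fell (-0.56, adjusted p = 3.61e-05). PSMD1 and PSMD2, the large scaffolds of the base, and the ubiquitin receptor gene PSMD4 lay within -0.03 to 0.03. The 8 lid genes ran from -0.19 (PSMD3) to 0.14 (PSMD8), with PSMD14, the deubiquitinase of the lid, at 0.06. The tissue-restricted core genes PSMA8 and PSMB11, known from testis and thymus, were listed at 0 in every library and not tested.

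The level of the same 31 genes also varied between libraries of a group. Taking each gene's log2 CPM minus its own mean over the 6 libraries, the median was 0.09, -0.006 and -0.03 in the controls, against 0.08, -0.15 and 0.04 after knockdown. In shRNH1 replicate 2, 29 of the 31 genes lay below their mean, against 4 and 9 in the other shRNH1 libraries and 8, 17 and 20 in the controls, while the median over all tested genes was 0.01 in that library. Without shRNH1 replicate 2, 5 constitutive genes rose in place of 2, among them PSMA4 (0.27) and PSMC4 (0.28), and PSMD10 (0.36). Over all genes 2895 were higher in that run, in place of 3006. With library size alone 6 constitutive genes were higher and 1 lower, where 27.9% of all genes were called, 4065 higher and 1433 lower. With an offset for expression level 4 were higher, where 26.3% of all genes were called, 2783 of them higher. DESeq2 called 1 higher, as did edgeR without shControl replicate 1, shControl replicate 3 or shRNH1 replicate 3. Over all genes these runs called 2502, 2526, 2996 and 2623 higher. Without shControl replicate 3, 5 constitutive genes were lower, where 2179 of all genes were.

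**Figure D4:**
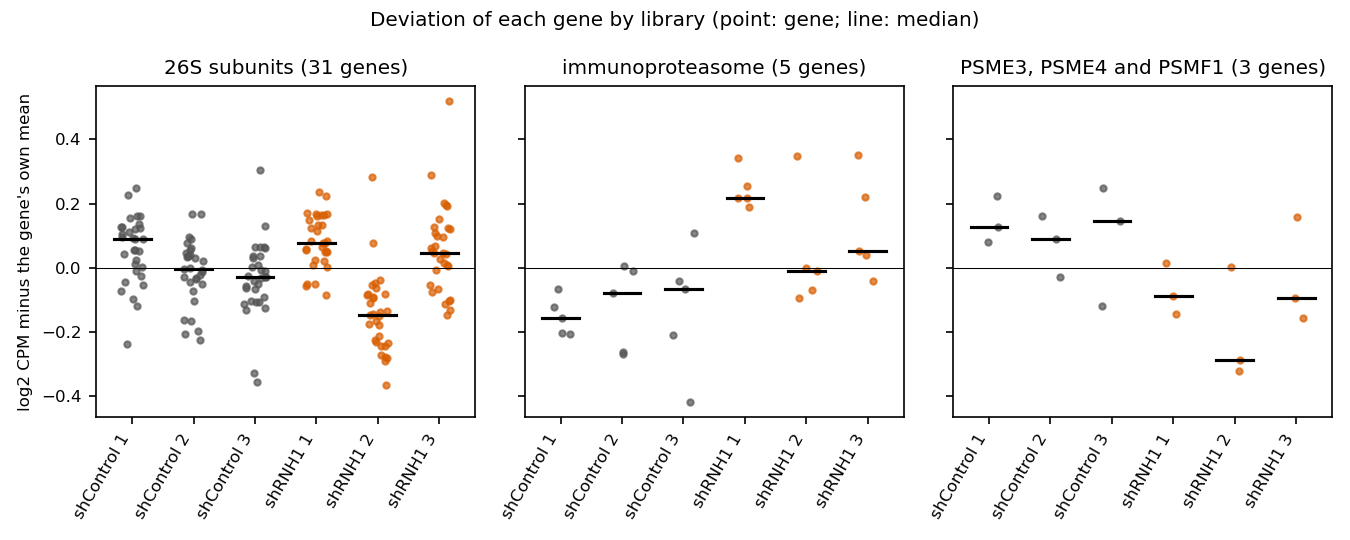
Log2 CPM of each gene minus its own mean over the 6 libraries (y axis) by library (x axis), for 31 genes of the 26S particle, 5 immunoproteasome genes and PSME3, PSME4 and PSMF1 (points, with a line at the median). In shRNH1 replicate 2, 29 of the 31 genes of the 26S particle lie below 0.

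Of the other regulators of the core, PSME3 and the inhibitor gene PSMF1 fell and PSME4, which encodes a large monomeric activator, had a log2 fold change of 0.05 (95% interval -0.14 to 0.23). PSME3 (ENSG00000131467; chromosome 17, 42824385 to 42843758, plus strand) measured 404, 368 and 411 CPM in shControl and 313, 277 and 324 in shRNH1. All 3 shRNH1 libraries lay below all controls, at a fold change of 0.772 (log2 -0.37, SE 0.096, edgeR adjusted p = 0.00419). With the offset for expression level it did not pass (-0.23, adjusted p = 0.0750). BECN1, which overlaps PSME3 from the opposite strand, had a log2 fold change of -0.10 (adjusted p = 0.483).

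PSMF1 (ENSG00000125818; chromosome 20, 1113263 to 1189415, plus strand), whose product PI31 inhibits the core in vitro, measured 84.5, 86.4 and 85.4 CPM in shControl and 78.0, 63.2 and 69.2 in shRNH1. The controls were tight and all shRNH1 libraries were below them, with a log2 fold change of -0.28 (SE 0.0943, edgeR adjusted p = 0.0245). It passed in 9 of 16 alternative analyses. The call was lost without shControl replicate 1 (adjusted p = 0.0646), shControl replicate 2 (0.0632), shRNH1 replicate 2 (0.110) or shRNH1 replicate 3 (0.0814), with library size alone (0.174), with the expression level offset (0.0753) or with a replicate block (0.0582).

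Among 7 assembly factor genes 1 rose and 1 fell, a share (28.6%) near the 27.6% called among all genes. PSMG3 (ENSG00000157778; chromosome 7, 1567330 to 1571005, minus strand), which with PSMG4 guides the alpha ring, measured 70.6, 68.2 and 70.9 CPM in shControl and 108, 103 and 96.0 in shRNH1. The groups stood well apart, at a fold change of 1.46 (log2 0.55, SE 0.090, edgeR adjusted p = 3.66e-05), and PSMG3 passed in all 16 alternative analyses. PSMG3-AS1, which overlaps it by 933 bases on the opposite strand, rose too (0.92, SE 0.184, adjusted p = 3.92e-04; 93 to 178 counts). PSMG4, the partner of PSMG3, had a log2 fold change of -0.22 (95% interval -0.41 to -0.03, adjusted p = 0.0875). PSMG1 and PSMG2, the other pair of alpha ring chaperones, had values of 0.10 (-0.12 to 0.33) and -0.28 (-0.50 to -0.07, adjusted p = 0.0524). PSMG2 passed under 6 of the alternatives, such as DESeq2 size factors in edgeR (-0.30, adjusted p = 0.0372) and without shControl replicate 3 (-0.34, adjusted p = 0.0313).

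PSMD9 (ENSG00000110801; chromosome 12, 121888731 to 121918297, plus strand), a chaperone of the ATPase ring, measured 18.5, 17.6 and 19.8 CPM in shControl and 14.6, 12.8 and 14.6 in shRNH1. There was no overlap, and the fold change was 0.752 (log2 -0.41, SE 0.109, edgeR adjusted p = 0.00516). With library size alone it did not pass (-0.30, adjusted p = 0.0560). CFAP251, which overlaps PSMD9 by 436 bases on the same strand, fell as well (-0.87, adjusted p = 5.52e-04), and an unnamed gene, ENSG00000256950 (2 to 6 counts), covers 29489 bases of it. PSMD5 and PSMD10, which also chaperone ATPases, had log2 fold changes of -0.10 (-0.29 to 0.09) and 0.24 (0.01 to 0.46), and neither passed. The PSMD10 interval leaves out 0 although its unadjusted edgeR p was 0.0542. In all, 29 of the 48 genes overlap another annotated gene, 26 of them a gene with a mean of at least 10 counts.

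Genes that work with the proteasome but lie outside the symbol rule were read from lists chosen by function. Of 14 further proteasome components and cofactors 6 fell and 0 rose (0 higher at an unadjusted p below 0.05, and 0 by DESeq2 or limma-voom), with a median log2 fold change of -0.20, against 12.3% lower among all genes. ADRM1, a ubiquitin receptor of the 19S particle, went from 453 ± 72.5 to 340 ± 17.3 CPM (SD, n = 3 each; -0.42, SE 0.106, edgeR adjusted p = 0.00382). UCHL5, the deubiquitinase that docks on ADRM1, fell (-0.32, adjusted p = 0.0333), as did PITHD1 (-0.28, adjusted p = 0.0235) and ECPAS (-0.27, adjusted p = 0.0244), which bind the particle. ADRM1 passed in 15 of 16 alternative analyses, not with the expression level offset (-0.27), but UCHL5, PITHD1 and ECPAS in 10, 12 and 9. Each of these 3 missed it without shControl replicate 1 (-0.20, -0.26 and -0.26), UCHL5 and ECPAS also without shControl replicate 2, shRNH1 replicate 1 or shRNH1 replicate 2, and PITHD1 without shRNH1 replicate 3. All 3 also missed it with library size alone (-0.21, -0.16 and -0.16) and with the replicate block, where ADRM1 passed. ECPAS missed it with the expression level offset too (-0.16). POMP, the maturation factor of the core, was at 54.4 ± 4.92 and 54.3 ± 5.64 CPM (95% interval of the log2 fold change -0.20 to 0.19).

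Of 10 genes of the NFE2L1 pathway, through which cells raise proteasome genes when degradation fails, edgeR called MAFF alone (DESeq2 called 2 lower). Among all tested genes edgeR called 27.6%, with 12.3% lower. MAFF, a small partner of such factors, fell from 65.8 ± 15.4 to 34.7 ± 6.55 CPM (SD, n = 3 each; log2 -0.92, edgeR adjusted p = 6.55e-06), and NFE2L1 had a log2 fold change of -0.15 (95% interval -0.33 to 0.04). The 6 genes of ubiquitin supply and activation held 0 called genes (0 at an unadjusted p below 0.05, and 0 by DESeq2 or limma-voom) and had a median log2 fold change of -0.06. Of 10 tested genes for delivery of substrates 2 fell, against 12.3% lower among all genes. They were the VCP cofactor gene NSFL1C (-0.31, edgeR adjusted p = 0.0127) and the shuttle gene RAD23B (-0.26, adjusted p = 0.0426). NSFL1C did not pass without shControl replicate 1 (-0.28) or shRNH1 replicate 2 (-0.24), or with library size alone (-0.20). RAD23B passed in 8 of 16 alternatives, not without shControl replicate 1 or 3 or shRNH1 replicate 1 or 3.

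Of 12 regulators through which interferon acts on immunoproteasome genes, 4 rose and 1 fell, against 15.3% and 12.3% of all genes. IRF9, the DNA-binding subunit of the interferon-activated ISGF3 complex, had 102, 130 and 76 counts in shControl and 194, 216 and 182 in shRNH1 (log2 1.15, SE 0.178, edgeR adjusted p = 1.79e-05). IRF2 rose from 18.9 ± 1.29 to 24.8 ± 1.95 CPM (SD, n = 3 each; 0.39, adjusted p = 0.0059). SOCS3, a feedback inhibitor of cytokine receptors, fell (-0.34, edgeR adjusted p = 0.00858). It did not pass without shRNH1 replicate 3 (-0.29) or with library size alone (-0.22). By DESeq2, 2 of the 12 rose and 1 fell. IRF1, which binds immunoproteasome promoters, was at 33.9 ± 0.825 and 34.7 ± 1.87 CPM, with a 95% interval of the log2 fold change of -0.15 to 0.22.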

How the data were processed

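RNA of 6 KYSE510 libraries was sequenced after poly(A) selection. The authors deposited whole-number counts for each gene, not normalised, and HISAT2, StringTie, DESeq2 and the GRCh38 build are named in the submitters' processing notes. Versions, the counter, strand setting and annotation release are not stated there or in the labels. All 37 mitochondrial genes were listed at 0. A name was found for all 62700 IDs, which for genes without a symbol was the ID itself. Positions and lengths (longest principal transcript) come from GENCODE 29.

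The fit used edgeR 4.0.16 (R 4.3.3): TMM, filterByExpr, quasi-likelihood test, no covariate, Benjamini-Hochberg adjustment over 19682 genes at 0.05. Intervals are 1.96 standard errors, derived from the F statistic, to each side. This factor takes no account of the few samples, so the intervals are somewhat too narrow. Ratios used counts plus 0.5. The script was tested on simulated data. Alternatives were DESeq2 1.42.0 (as a test and for its size factors), limma-voom (limma 3.58.1), raw library sizes, 2 filters, a replicate block, offsets (splines of 5 degrees of freedom, robust regression), protein-coding genes alone and each library left out. The members and lists were chosen with earlier results of these data known. Every called member, each immunoproteasome and catalytic gene, the highest and lowest per role and up to 4 called genes per list were to be named; other genes (neighbours, partners, PSMG2) were named after their values were seen. Values of some listed genes are not reported here.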

Additional observations from a re-analysis of the deposited data

How the results depend on the processing

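The rises of PSMB9 and PSMG3 held under every alternative listed in the methods, PSME3 and PSMD9 under 15 of 16, PSMB8 under 14, PSMA2 under 11 and PSMF1 under 9, and all 7 kept their direction. PSMB5, which did not pass, turned positive with library size alone (0.0721), under the expression level offset (0.0475) and in 2 of the runs with a library left out (-0.111 to 0.0637; 0.0157 without shControl replicate 1, the highest without shRNH1 replicate 2). Library size alone gave 4065 genes higher and 1433 lower in place of 3006 and 2418, raised the median of all genes from 0.02 to 0.13, and gave 6 constitutive genes higher and 1 lower, medians of 0.0721 and 0.27 for constitutive and immunoproteasome genes, and 2 lower genes in the related lists. Constitutive genes higher were 1 by DESeq2, 4 with the expression level offset and 1 to 5 with a library left out, and lower ones 2 to 5. With a library left out, 2336 to 2996 of all genes were higher and 1814 to 2315 lower. Immunoproteasome genes higher were 3 with library size alone, where PSME1 was gained. With a library left out they were 1 or 2, and their median 0.0709 to 0.238. The related lists together had 4 higher and 10 lower as reported, 26.9% called against 27.6% of all genes. Of them 2 were higher with DESeq2 size factors, DESeq2, no filter, the replicate block or the GC and length offset. With a library left out 2 to 4 were higher and 3 to 8 lower. The replicate numbers did not pair the samples (correlations of deviations 0.0476, 0.033 and -0.146), and with the replicate block 2938 genes were higher and 2156 lower, PSMF1 was lost, and 6 genes of the related lists were lower. The 5 ratios kept their direction with a pseudocount of 1 and with each library left out. The low counts of PSMA2 limit its precision.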

Other observations

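The count table holds 44 pseudogenes named after PSMA to PSMG genes. Of these, 19 were at 0 in every library, and the highest count was 128 (PSMD10P1). The 5 that passed the filter on low counts gave 0 calls by edgeR, with 0 at an unadjusted p below 0.05. The 3 pseudogenes of PSMA2, the gene with far fewer counts than its ring partners, held at most 10 counts each in any library.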
